A study of Mus musculus with 8 samples.

Results

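The transcription factors that set and keep hepatocyte identity, Hnf4a, Cebpa, Cebpb, Foxa1, Foxa2, Foxa3, Nr5a2, Onecut1 and Prox1, were taken by gene symbol from the deposited expression table, where they made up 9 of 55487 genes. Their RNA was measured by RNA-seq in 8 libraries of liver tissue from male wild type C57BL/6N mice, an inbred laboratory strain. In the WD+CCl4 group (1 library) the mice received a western diet, made of high-fat feed and drinking water with 23.1 g/L fructose and 18.9 g/L glucose, and weekly intraperitoneal carbon tetrachloride (CCl4), a toxin that hepatocytes activate to a reactive radical. In the WD+oil group (2 libraries) the same diet was combined with weekly intraperitoneal corn oil, the carrier. In the ND+CCl4 group (2 libraries) mice on normal chow and tap water were given CCl4, and in the ND+oil group (3 libraries) mice on normal chow and tap water were given corn oil. All groups shared strain, sex and the weekly injection. The sources used here give no dose of CCl4, no age and no length of treatment. Nothing in the labels says whether each library came from its own animal, so p-values measure only the spread between libraries, which may be technical.

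As background, hepatocyte identity rests on a small network of transcription factors that bind the enhancers and promoters of liver genes together and also bind each other's genes. FOXA proteins open compact chromatin during liver development, HNF4A and C/EBP alpha then keep the metabolic and secretory genes active, and C/EBP beta takes part in the acute phase response and in regeneration. NR5A2 (LRH-1) regulates bile acid and cholesterol genes, ONECUT1 (HNF6) acts in hepatocyte and bile duct development, and PROX1 is a homeobox factor of hepatocytes that lymphatic endothelial cells also use. Chronic liver injury is the setting in which this network is often studied.

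Levels are in FPKM, fragments scaled by transcript length and by the mapped fragments of the library, so levels may be compared between genes per unit of length. Counts were not analysed here and the depth behind each value is unknown. The FPKM of a library summed to between 514832 and 612747, and between 12531 and 14843 genes were above 0. The major urinary protein (Mup) genes, made by hepatocytes, held 8.22% of the sum in WD+CCl4, 9.16% and 10.04% in WD+oil, 2.80% and 4.65% in ND+CCl4, and 16.9%, 22.1% and 32.5% in ND+oil. FPKM is a share of each library. Over the 11514 tested genes the median fold change against ND+oil, on a log2 scale, was 0.22 in WD+oil, 0.26 in ND+CCl4 and 0.19 in WD+CCl4. Median-of-ratios scaling, which brings such medians close to 0 by construction, moved them to within 0.01 of 0. With the Mup genes removed and the rest rescaled they were 0.098, 0.147 and 0.065. The members are set here against the medians of the deposited values. Fold changes are differences of log2(FPKM + 1), which understate the change of genes at low levels. They were tested with limma over all tested genes, and a gene was called at a Benjamini-Hochberg adjusted p below 0.05. The tissue is a mixture of cells, and fewer cells of a type and less RNA per cell cannot be told apart.

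The promoters of Foxa2 and Onecut1 are shown first, because these members varied most between libraries and were at their lowest in the same 3 of them. Each is the stretch of 250 bases before the start of transcription, read 5′ to 3′ on the strand of the gene, from RefSeq's GRCm38.p6 annotation, with no annotated exon in it.
Foxa2 promoter, chr2:148046970-148047219, minus strand: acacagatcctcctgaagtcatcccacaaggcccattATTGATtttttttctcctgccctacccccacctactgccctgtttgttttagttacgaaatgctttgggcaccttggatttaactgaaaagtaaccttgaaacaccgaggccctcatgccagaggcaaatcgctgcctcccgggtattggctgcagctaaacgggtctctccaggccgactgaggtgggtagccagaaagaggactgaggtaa
Onecut1 promoter, chr9:74861671-74861920, plus strand: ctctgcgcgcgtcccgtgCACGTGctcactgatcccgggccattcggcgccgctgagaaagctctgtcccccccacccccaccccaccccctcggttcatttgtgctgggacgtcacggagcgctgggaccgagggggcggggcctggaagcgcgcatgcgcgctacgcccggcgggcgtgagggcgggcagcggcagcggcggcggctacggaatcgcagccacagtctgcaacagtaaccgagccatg
Capitals mark the matches to any of 10 short motifs, searched on both strands: ATTGAT and ATCGAT (ONECUT), TGTTTAC and TGTTTGC (FOXA), CAAAGTCCA and CAAAGTTCA (HNF4A), CAAGGTCA (NR5A2), TTGCNNAA (C/EBP), TGACGTCA (CREB) and CACGTG (E-box). The Foxa2 promoter held ATTGAT 213 to 208 bases before the start, a motif found in 6.72% of 32851 windows of the same length. The Onecut1 promoter held the E-box CACGTG 232 to 227 bases before the start, which 6.02% of the windows held. GC content was 50.8% in the Foxa2 window and 71.6% in the Onecut1 window, against a median of 52.4% over all windows. A match describes the letters and is not a binding site, and other starts are annotated for Foxa2 (3 in all).

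Hnf4a, the nuclear receptor at the centre of the network, lies at chr2:163506808-163572910 on the plus strand (GRCm38, GENCODE M21, as for all genes here). Its highest library was 1.49 times its lowest, against 2.94 times for Cebpa and 2.33 times for Cebpb, the other abundant members, and these 3 genes held between 79.1% and 88.5% of the members' summed FPKM. Its level was 70.5 FPKM in WD+CCl4, 65.0 and 60.0 FPKM in WD+oil, 85.3 and 89.6 FPKM in ND+CCl4, and 69.8, 71.8 and 65.2 FPKM in ND+oil. Both ND+CCl4 libraries stood above the other 6, both WD+oil libraries stood below them, and the WD+CCl4 library lay inside the ND+oil range. Group means were 62.5 ± 3.59 FPKM in WD+oil (SD, n = 2), 87.4 ± 3.02 FPKM in ND+CCl4 (SD, n = 2) and 68.9 ± 3.36 FPKM in ND+oil (SD, n = 3). The log2 fold change against ND+oil was -0.14 in WD+oil (SE 0.16), 0.34 in ND+CCl4 (SE 0.16) and 0.03 in WD+CCl4 (SE 0.21), with adjusted p of 0.638, 0.249 and 0.956 in limma. Under median-of-ratios scaling these values were -0.41, 0.01 and -0.19, with adjusted p of 0.238, 0.987 and 0.755, and ND+CCl4 library 1 then lay below all ND+oil libraries and ND+CCl4 library 2 above them. The spread of Hnf4a within groups was small: its residual SD was 0.07 on the log2 scale, and 1.96% of tested genes had a lower one. The antisense gene Hnf4aos, which overlaps Hnf4a but shares no exon sequence with it, was at 1.61 FPKM in WD+CCl4, 1.02 and 1.43 FPKM in WD+oil, 0.614 and 3.18 FPKM in ND+CCl4, and 2.91, 3.96 and 3.88 FPKM in ND+oil.

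Cebpa and Cebpb, whose proteins can bind the same DNA sites, did not follow each other across libraries. Cebpa (chr7:35119293-35121928, plus strand), which drives genes of gluconeogenesis, the urea cycle and secreted proteins, was at 108 FPKM in WD+CCl4, 81.4 and 36.6 FPKM in WD+oil, 85.1 and 108 FPKM in ND+CCl4, and 54.5, 72.8 and 60.3 FPKM in ND+oil. The 3 libraries with CCl4 were the 3 highest, and the WD+oil libraries were far apart, 1 above and 1 below all ND+oil libraries. Against ND+oil its log2 fold change was -0.18 in WD+oil (SE 0.33), 0.62 in ND+CCl4 (SE 0.33) and 0.78 in WD+CCl4 (SE 0.41), with adjusted p of 0.772, 0.281 and 0.419. Without WD+oil library 2 the WD+oil value was 0.39. Under median-of-ratios scaling the values were -0.45, 0.29 and 0.56, with adjusted p of 0.556, 0.800 and 0.656, and ND+CCl4 library 1 then lay below WD+oil library 1 and ND+oil libraries 2 and 3.

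Cebpb (chr2:167688915-167690418, plus strand), which is induced in the acute phase response, was at 68.7 FPKM in WD+CCl4, 83.0 and 106 FPKM in WD+oil, 59.2 and 45.5 FPKM in ND+CCl4, and 100.4, 67.1 and 51.2 FPKM in ND+oil. Both WD+oil libraries stood above both ND+CCl4 libraries, while the ND+oil libraries spread across nearly the whole range. Its log2 fold change against ND+oil was 0.41 in WD+oil (SE 0.29), -0.43 in ND+CCl4 (SE 0.29) and -0.03 in WD+CCl4 (SE 0.37), with adjusted p of 0.438, 0.376 and 0.977. Between WD+oil and ND+CCl4 it was 0.84 (SE 0.32, adjusted p = 0.392), with a 95% confidence interval of 0.10 to 1.59. Cebpb overlaps exons of Tmem189 on the opposite strand, and Cebpa those of the antisense gene Gm45091. The sources used here give no strand setting for the counting, so reads in these overlaps cannot be told apart. Tmem189 was at 6.32 FPKM in WD+CCl4, 8.07 and 11.4 FPKM in WD+oil, 5.79 and 5.55 FPKM in ND+CCl4, and 4.49, 5.27 and 4.13 FPKM in ND+oil, below Cebpb in every library.

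The ratio of Cebpb to Cebpa, a comparison within each library that no scaling of the library can move, was 0.638 in WD+CCl4, 1.02 and 2.90 in WD+oil, 0.696 and 0.423 in ND+CCl4, and 1.84, 0.922 and 0.849 in ND+oil. It was above 1 in both WD+oil libraries and in ND+oil library 1, and below 1 in all libraries with CCl4.

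**Figure D1:**
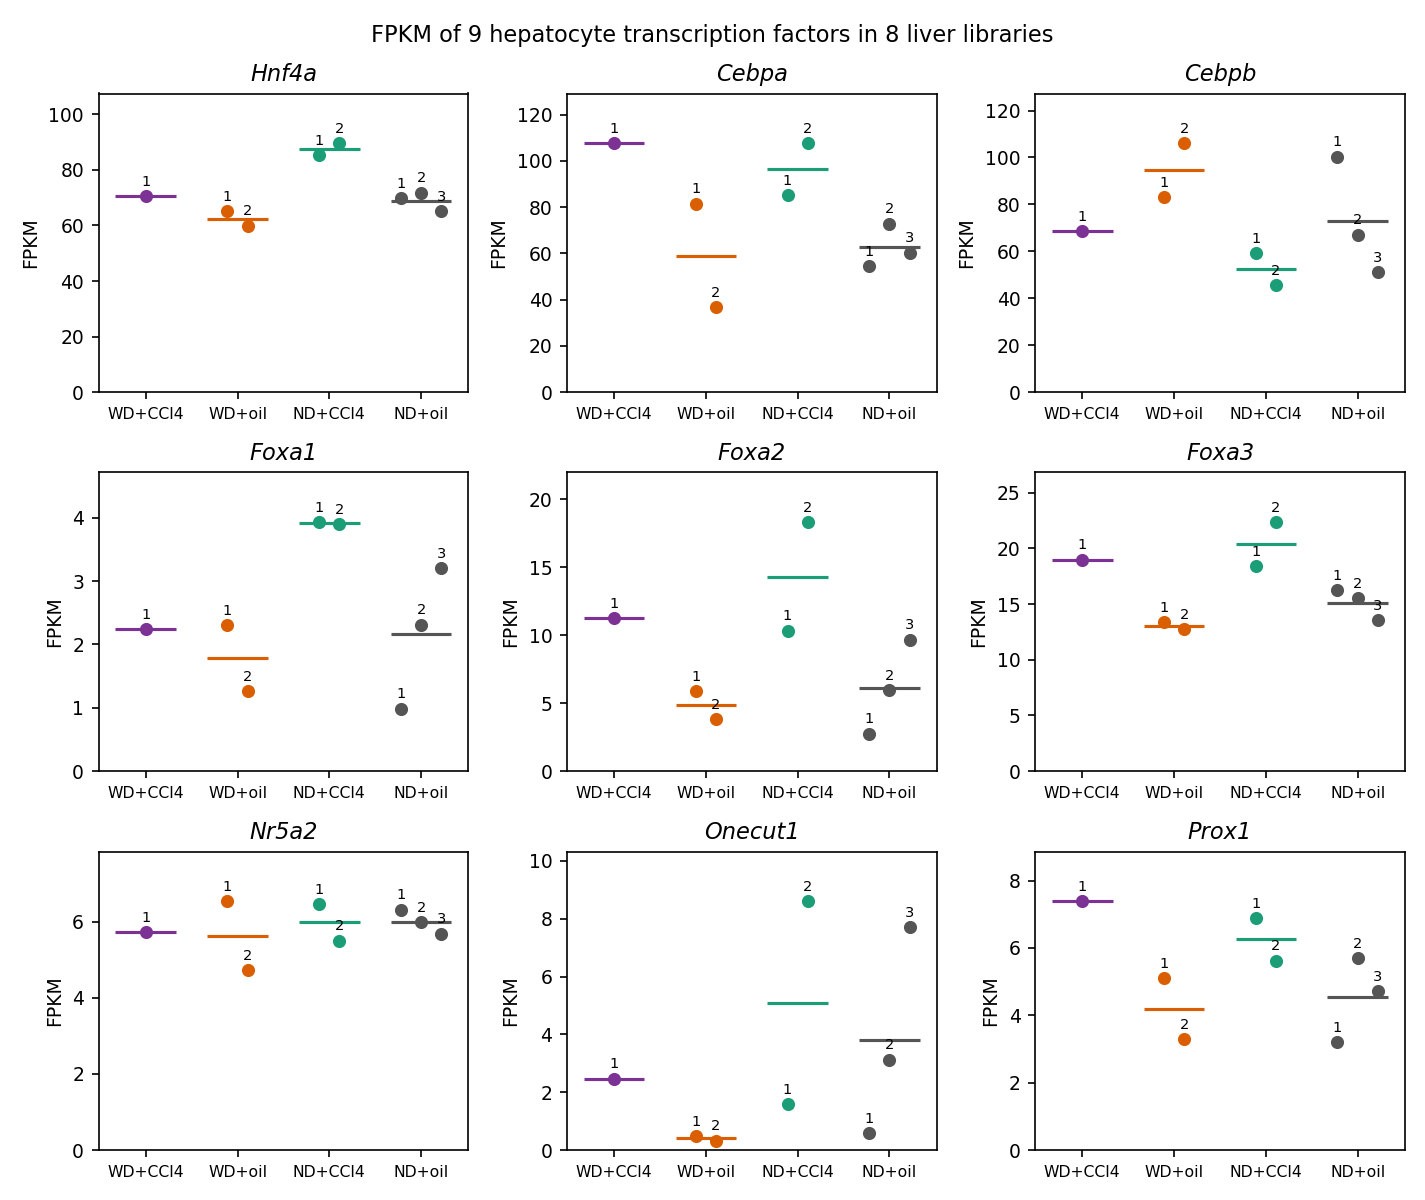
FPKM of each of the 9 transcription factors (vertical axis, from 0, with its own scale in each panel) in each group (horizontal axis); points are libraries with their numbers and lines are group means. Hnf4a runs from 60.0 to 89.6 FPKM with close replicates, whereas the ND+oil libraries of Onecut1 run from 0.583 to 7.70 FPKM.

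Among the FOXA pioneer factors, Foxa3 was the most abundant in every library and Foxa1 the least. Foxa3 (chr7:19013284-19023538, minus strand) was at 18.96 FPKM in WD+CCl4, 13.4 and 12.8 FPKM in WD+oil, 18.4 and 22.3 FPKM in ND+CCl4, and 16.2, 15.5 and 13.5 FPKM in ND+oil. Its 3 libraries with CCl4 stood above the 5 with oil, and both WD+oil libraries stood below the rest. The log2 fold change against ND+oil was -0.19 in WD+oil (SE 0.17), 0.41 in ND+CCl4 (SE 0.17) and 0.31 in WD+CCl4 (SE 0.21), with adjusted p of 0.516, 0.205 and 0.524. Between WD+oil and ND+CCl4 Foxa3 had a log2 fold change of -0.60 (SE 0.18), whose adjusted p of 0.253 was the lowest of any member in that comparison. Under median-of-ratios scaling the ND+CCl4 value of Foxa3 was 0.09, and the groups overlapped.

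Foxa2 (chr2:148042877-148046969, minus strand), which in mouse liver also takes part in bile acid and fasting metabolism, was at 11.3 FPKM in WD+CCl4, 5.88 and 3.83 FPKM in WD+oil, 10.3 and 18.3 FPKM in ND+CCl4, and 2.74, 5.95 and 9.66 FPKM in ND+oil. Here too the 3 libraries with CCl4 were the 3 highest, but ND+oil library 3 lay close to ND+CCl4 library 1. Relative to ND+oil the fitted log2 fold change was -0.18 in WD+oil (SE 0.43), 1.18 in ND+CCl4 (SE 0.43) and 0.91 in WD+CCl4 (SE 0.54). The ND+CCl4 value, a difference with a 95% confidence interval of 0.19 to 2.17, had an adjusted p of 0.176, and the other adjusted p-values were 0.833 and 0.470. Under median-of-ratios scaling it was 0.89. Without WD+oil library 2 or ND+oil library 3 the WD+oil value turned to 0.08 and 0.18.

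Foxa1 (chr12:57540628-57546916, minus strand) was at 2.24 FPKM in WD+CCl4, 2.30 and 1.26 FPKM in WD+oil, 3.93 and 3.90 FPKM in ND+CCl4, and 0.988, 2.31 and 3.20 FPKM in ND+oil. The ND+CCl4 libraries, nearly alike, were the 2 highest, and the WD+CCl4 library lay inside the ND+oil range. Its log2 fold change against ND+oil was -0.15 in WD+oil (SE 0.31), 0.70 in ND+CCl4 (SE 0.31) and 0.10 in WD+CCl4 (SE 0.40), with adjusted p of 0.810, 0.229 and 0.928.

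The summed FPKM of the 3 FOXA genes was 32.5 in WD+CCl4, 21.5 and 17.9 in WD+oil, 32.7 and 44.6 in ND+CCl4, and 20.0, 23.8 and 26.4 in ND+oil. Foxa2 made up 34.7% of that sum in WD+CCl4, 27.3% and 21.4% in WD+oil, 31.7% and 41.1% in ND+CCl4, and 13.7%, 25.0% and 36.6% in ND+oil. Foxa3 held between 50.1% and 81.3% of the sum. The ND+oil libraries alone covered most of the range of the Foxa2 share.

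**Figure D2:**
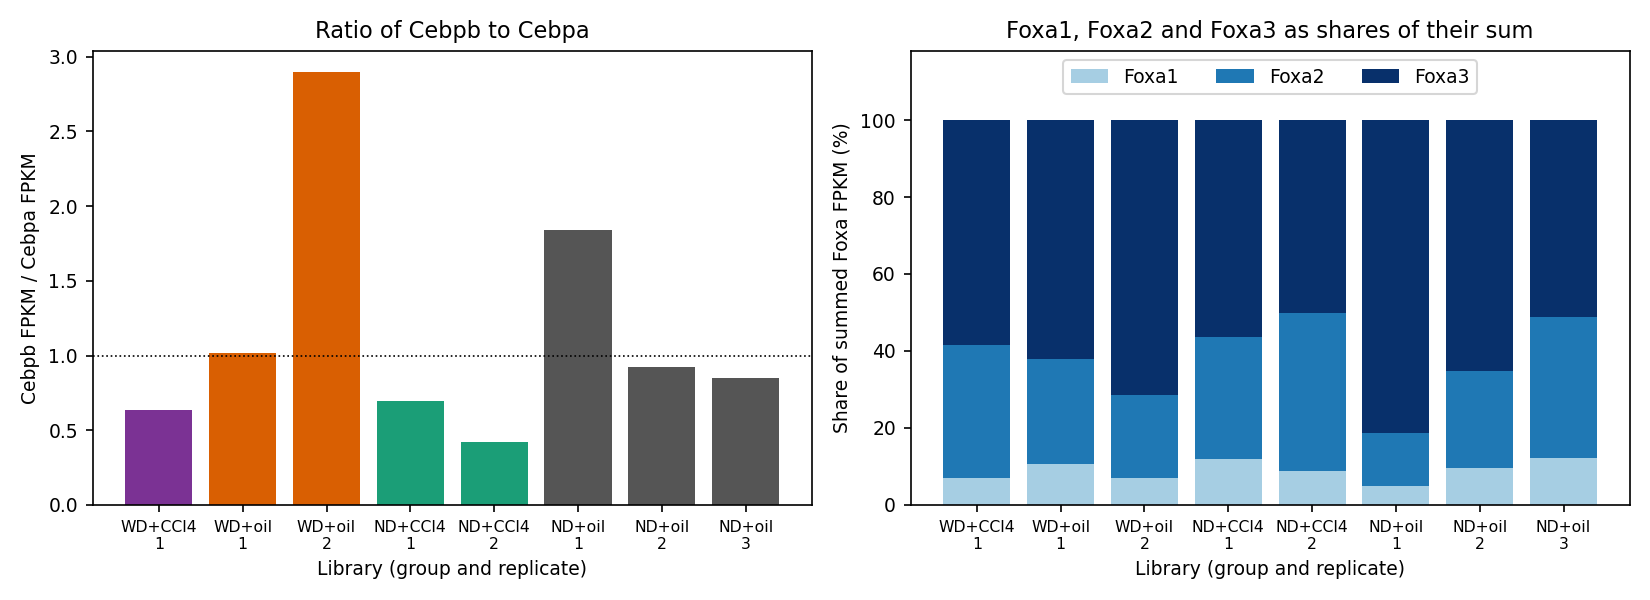
Left, the ratio of Cebpb to Cebpa FPKM in each library (vertical axis from 0; the dotted line marks 1), which is highest in WD+oil library 2 at 2.90. Right, Foxa1, Foxa2 and Foxa3 as a percentage of their summed FPKM in each library; the Foxa2 part is smallest in ND+oil library 1 at 13.7% and largest in ND+CCl4 library 2 at 41.1%.

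Onecut1 (chr9:74861921-74891781, plus strand) varied most of all members, 25.8-fold between its lowest and highest library. It was at 2.47 FPKM in WD+CCl4, 0.486 and 0.333 FPKM in WD+oil, 1.58 and 8.60 FPKM in ND+CCl4, and 0.583, 3.12 and 7.70 FPKM in ND+oil. Both WD+oil libraries stood below every other library, but ND+oil library 1 stood next to them, and the remaining groups overlapped. The log2 fold change against ND+oil was -1.45 in WD+oil (SE 0.73, adjusted p = 0.277), 0.37 in ND+CCl4 (SE 0.73, adjusted p = 0.743) and -0.15 in WD+CCl4 (SE 0.92, adjusted p = 0.955). Leaving out ND+oil library 1 made the WD+oil value -2.09, and leaving out ND+oil library 3 made it -0.86. For ND+CCl4 the sign depended on single libraries, with -0.57 without ND+CCl4 library 2 and -0.27 without ND+oil library 1. In ND+oil alone the SD of Onecut1 was 1.23 on the log2 scale, and 99.4% of tested genes had a lower one. The lincRNA Gm20649, which shares exon sequence with Onecut1 on the same strand, was at 0.668 and 0.490 FPKM in WD+oil and at 1.76 FPKM in ND+CCl4 library 1, and was listed at 0 in the other 5 libraries.

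Nr5a2 (chr1:136842571-136960448, minus strand) showed the smallest range of any member. Its level was 5.73 FPKM in WD+CCl4, 6.53 and 4.73 FPKM in WD+oil, 6.46 and 5.50 FPKM in ND+CCl4, and 6.31, 5.98 and 5.68 FPKM in ND+oil. All groups overlapped with the ND+oil range, and the group means of log2(FPKM + 1) spanned 0.09. Against ND+oil the 95% confidence interval of its log2 fold change was -0.48 to 0.30 in WD+oil, -0.40 to 0.39 in ND+CCl4 and -0.55 to 0.44 in WD+CCl4, with adjusted p of 0.783, 0.988 and 0.926. Relative to the median of all genes it stood lower: under median-of-ratios scaling its values were -0.32, -0.29 and -0.25 (adjusted p of 0.310, 0.466 and 0.637).

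Prox1 (chr1:190118035-190170714, minus strand), which in mouse liver also represses bile acid and lipid genes with HNF4A and NR5A2, was at 7.38 FPKM in WD+CCl4, 5.11 and 3.29 FPKM in WD+oil, 6.88 and 5.63 FPKM in ND+CCl4, and 3.21, 5.70 and 4.71 FPKM in ND+oil. The WD+CCl4 library was the highest, and the ND+CCl4 and WD+oil libraries each overlapped those of ND+oil. Set against ND+oil, Prox1 had a log2 fold change of -0.09 in WD+oil (SE 0.24), 0.41 in ND+CCl4 (SE 0.24) and 0.62 in WD+CCl4 (SE 0.31), with adjusted p of 0.857, 0.317 and 0.383. The antisense gene Prox1os, which shares exon sequence with it, was at 3.71 FPKM in WD+CCl4, 3.27 and 3.55 FPKM in WD+oil, 1.80 and 4.50 FPKM in ND+CCl4, and 4.19, 3.60 and 4.05 FPKM in ND+oil, and reads in the shared stretch cannot be told apart.

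Over the 9 members together, limma called none in any of the 7 comparisons, and none was called under any of the alternatives, with a lowest adjusted p of 0.0742 among them. In WD+oil against ND+oil, where 4.41% of tested genes were called, 0 of the 9 were called and 0 had an unadjusted p below 0.05, which 23.3% of genes had. In that comparison 8 of the 9 had a log2 fold change below 0, with a median of -0.15 against 0.22 for all genes, and the counts were 8 of 9 and the median -0.41 under median-of-ratios scaling. Leaving out WD+oil library 2 turned the sign of Cebpa, Foxa1, Foxa2, Nr5a2 and Prox1, whose values were then 0.39, 0.13, 0.08, 0.11 and 0.17. Hnf4a, Foxa3 and Onecut1 lay below all ND+oil libraries in both WD+oil libraries, 3 of 9 members against 5.18% of all tested genes, and 0 of 9 lay above, against 40.7%. These shares hold for the values as deposited, in which all genes were shifted upward. With median-of-ratios scaling Nr5a2 also lay below, 4 of 9, and 0 of 9 lay above. The share of all genes with that scaling was not computed for this comparison.

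For ND+CCl4 against ND+oil, 1.42% of tested genes and 0 of the 9 members were called. An unadjusted p below 0.05 was found for Foxa2 and Foxa3, 2 of 9 against 22.8% of all genes, a share near the background, and robust eBayes gave the same count. The median of the 9 was 0.41 against 0.26 for all genes, and 7 of 9 were above 0. Hnf4a, Cebpa, Foxa1, Foxa2 and Foxa3 lay above all ND+oil libraries in both ND+CCl4 libraries, 5 of 9 against 41.8% of all genes. That count depended on the scaling: with median-of-ratios scaling it was 0 of 9, against 15.2% of genes, and Cebpb and Nr5a2 lay below, 2 of 9 against 14%. With the values as deposited 0 of 9 lay below, against 3.8% of genes.

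The single WD+CCl4 library gave 0 calls among the members against ND+oil, where 0.929% of genes were called, and 0 had an unadjusted p below 0.05 with either form of limma, against 15.3% of genes. It lay above all ND+oil libraries for Cebpa, Foxa2, Foxa3 and Prox1, 4 of 9 against 51.5% of all genes, and below them for none, against 13.4%. With median-of-ratios scaling it lay above them for Cebpa and Prox1 and below them for Hnf4a and Nr5a2, 2 of 9 each against 31.2% and 28.3% of genes. Against WD+oil, where 0.0434% of genes were called, it lay above both libraries for 6 members, against 26.4% of genes, and below them for Cebpb, against 36.8%. The largest of these differences were 1.30 for Onecut1 (SE 0.98), 1.09 for Foxa2 (SE 0.58) and 0.96 for Cebpa (SE 0.44), each with an adjusted p of 1. There 0 of 9 had an unadjusted p below 0.05, against 4.19% of genes, and 1 had with robust eBayes. Against ND+CCl4, where 0.261% of genes were called, it lay above for 3 members and below for 2, against 23.2% and 39.3% of genes, and 0 of 9 had an unadjusted p below 0.05, against 7.1%.

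WD+oil and ND+CCl4 differ in both diet and injection, as WD+CCl4 and ND+oil do. Hnf4a, Cebpa, Foxa1, Foxa2, Foxa3, Onecut1 and Prox1 lay lower in both WD+oil libraries than in both ND+CCl4 libraries, 7 of 9 against 22.8% of all tested genes, and Cebpb lay higher, against 17.1%. With median-of-ratios scaling 6 members lay lower, without Cebpa, against 20.5% of genes. The log2 fold change was -1.82 for Onecut1 (SE 0.80), -1.36 for Foxa2 (SE 0.47), -0.85 for Foxa1 (SE 0.34) and -0.80 for Cebpa (SE 0.36). It was -0.50 for Prox1 (SE 0.27) and -0.48 for Hnf4a (SE 0.18). Nr5a2, at -0.08 (SE 0.19), overlapped between the groups. None of the 9 was called, in a comparison where 0.617% of genes were. Hnf4a, Cebpb, Foxa1, Foxa2 and Foxa3 had an unadjusted p below 0.05, 5 of 9 against 11.1% of genes, in limma and with robust eBayes. The interaction of diet and CCl4 called 0 of 9, against 0.0608% of genes, and 0 of 9 had an unadjusted p below 0.05, against 9.78%; its values ran from -0.46 for Foxa1 (SE 0.52) to 0.93 for Onecut1 (SE 1.22).

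**Figure D3:**
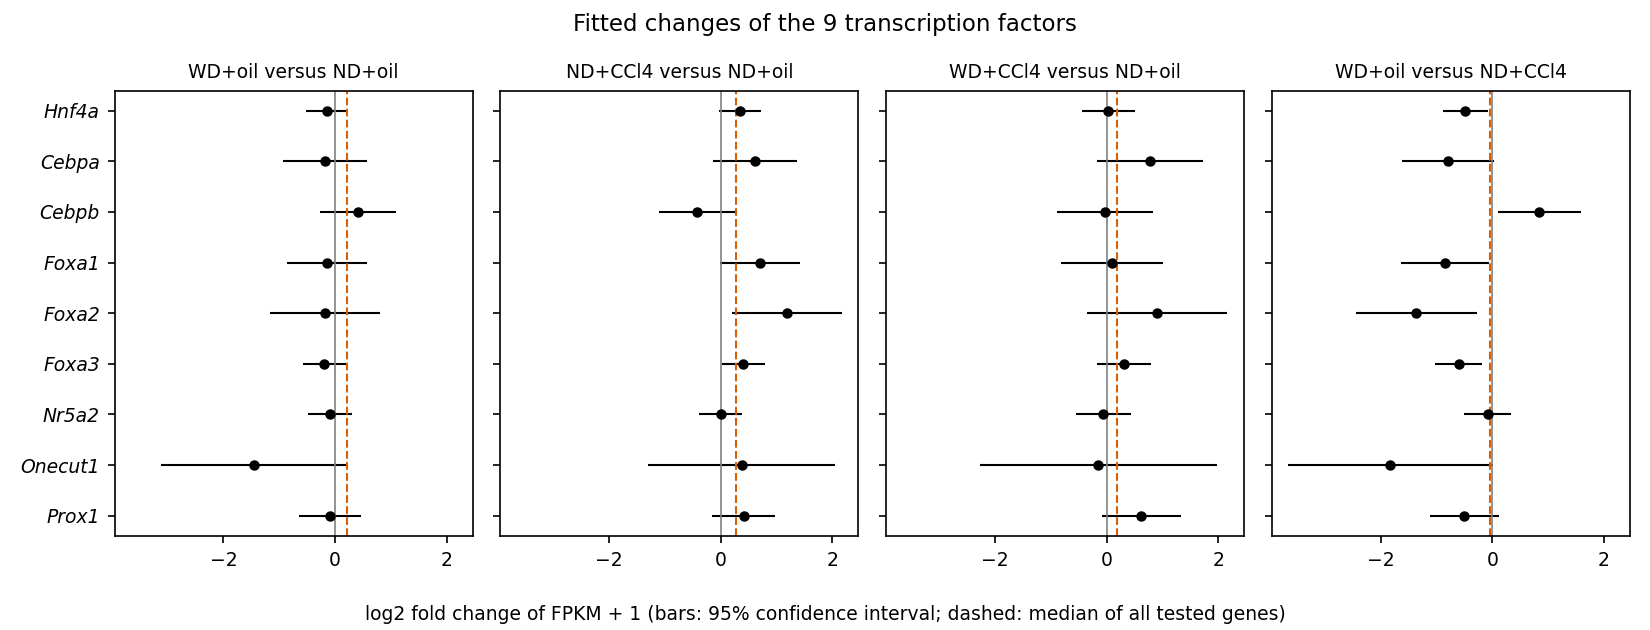
Log2 fold change of FPKM + 1 (horizontal axis) of each transcription factor in 4 comparisons, with 95% confidence intervals from limma; the dashed line is the median of all tested genes and the grey line is 0. In WD+oil versus ND+CCl4 the intervals of Hnf4a, Foxa1, Foxa2 and Foxa3 lie below 0 and that of Cebpb above it, while the lowest adjusted p among these transcription factors in that comparison is 0.253.

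Libraries of 1 group differed among themselves in a way several members shared. The 3 lowest libraries of Foxa2 and of Onecut1 were ND+oil library 1 and both WD+oil libraries, and these were the 3 highest of Cebpb. ND+CCl4 library 2 was the highest of Hnf4a, Foxa2, Foxa3 and Onecut1 and the lowest of Cebpb. Within ND+oil, Foxa1, Foxa2 and Onecut1 were lowest in library 1 and highest in library 3, and Cebpb was highest in library 1 and lowest in library 3. The SD within ND+oil was 0.76 for Foxa2, 0.55 for Foxa1 and 0.48 for Cebpb on the log2 scale, and 98.1%, 95.2% and 92.8% of tested genes had a lower one. For Hnf4a and Nr5a2 it was 0.07 each, with 11.7% and 10.6% of genes lower. The same ND+oil libraries differed in their Mup share, given above, and the part of this in the members' spread was not tested.

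**Figure D4:**
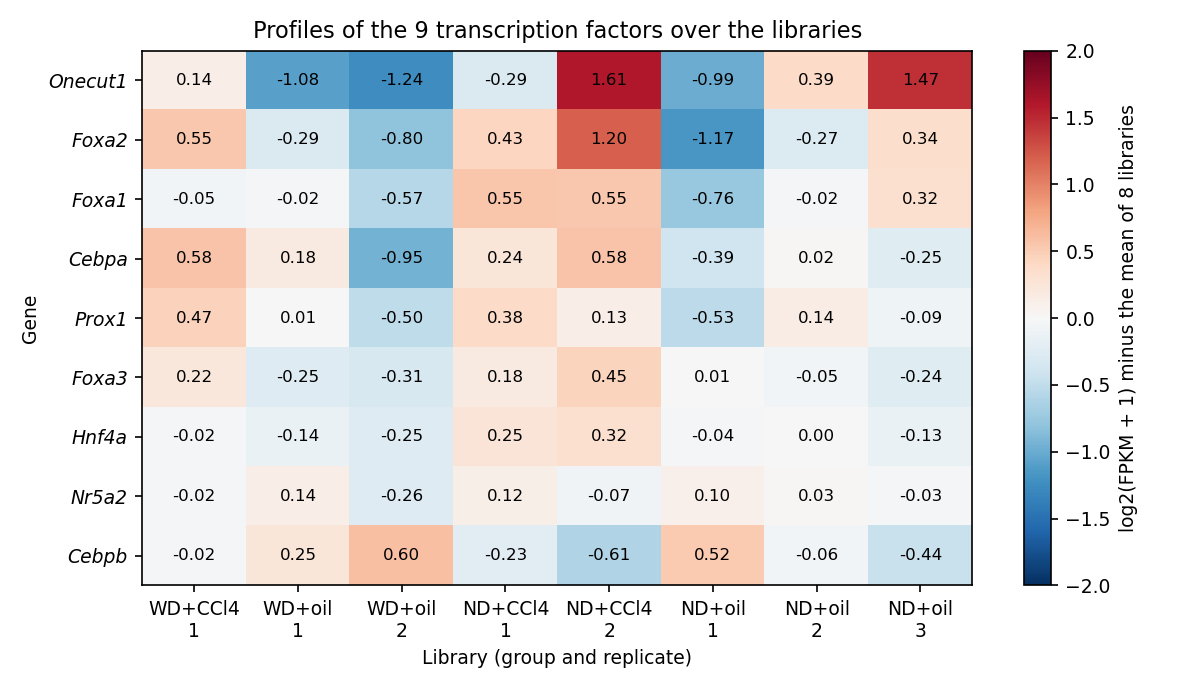
log2(FPKM + 1) of each transcription factor in each library (columns, by group) minus its mean over the 8 libraries (colour and printed value; red above, blue below). Onecut1 and Foxa2 are lowest in the WD+oil libraries and ND+oil library 1, where Cebpb is at its highest, with values of -1.24, -1.17 and 0.60 at the extremes.

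The genes whose library profile lay closest to that of Foxa2, by the root mean square difference of centred log2(FPKM + 1) over 8 libraries, were Id2 (0.319), an inhibitor of helix-loop-helix factors, Hhex (0.353), a homeobox factor of the early liver bud, and Atg9a (0.362), an autophagy protein. Hhex was at 27.3 FPKM in WD+CCl4, 19.7 and 7.39 FPKM in WD+oil, 27.0 and 29.4 FPKM in ND+CCl4, and 10.7, 20.3 and 28.1 FPKM in ND+oil. For Onecut1 the closest were Cyp2f2 (0.537), a cytochrome P450 of periportal hepatocytes, Ces3b (0.589), a carboxylesterase, and Hal (0.606), histidine ammonia lyase, also periportal. Cyp2f2 was at 227 FPKM in WD+CCl4, 150 and 154 FPKM in WD+oil, 348 and 734 FPKM in ND+CCl4, and 250, 319 and 417 FPKM in ND+oil, lowest in WD+oil as Onecut1 was. These genes were picked for likeness out of 5071 with a mean of at least 5 FPKM, and their likeness is a description.

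The other transcription factors of hepatocytes, 27 tested of 28 listed (among them Nr1h4, Ppara and Nr1i3), included none that was called in a comparison with ND+oil. Their median log2 fold change was 0.17 in WD+oil, 0.23 in ND+CCl4 and 0.23 in WD+CCl4, against 0.22, 0.26 and 0.19 for all genes. Nearest to a call were Nr1i3 (CAR), a receptor for foreign compounds, with a log2 fold change of -1.33 in WD+CCl4 (SE 0.28, adjusted p = 0.0840), Bcl6, a repressor, with 1.02 in WD+oil (SE 0.28, adjusted p = 0.0814), and Esrra, a regulator of mitochondrial genes, with 0.85 in ND+CCl4 (SE 0.18, adjusted p = 0.0683). Of 9 tested partners and coregulators of FOXA and NR5A2, 0 were called in these comparisons; the corepressor Tle3 had 0.66 in WD+oil (SE 0.23, adjusted p = 0.137). Of 10 C/EBP family members and dimer partners, Ddit3 (CHOP), a C/EBP factor induced by stress in the endoplasmic reticulum that dimerises with C/EBP proteins, was called in WD+oil. It was at 10.6 and 13.7 FPKM in WD+oil against 5.16, 6.28 and 6.85 FPKM in ND+oil, a log2 fold change of 0.89 (SE 0.20, adjusted p = 0.0484). The call was lost without any 1 of the 5 libraries compared, with adjusted p of up to 0.374, and under median-of-ratios scaling (0.19).

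Few genes of each list known to be bound or activated by the members were called, but their shares differed. The share over all tested genes was 4.41% in WD+oil, 1.42% in ND+CCl4 and 0.929% in WD+CCl4. In that order it was 3.57%, 3.57% and 0% for the HNF4A targets and 0%, 16.7% and 8.33% for the FOXA targets. For the NR5A2 targets it was 14.3%, 0% and 0%, and for the C/EBP beta targets 0%, 0% and 6.25%. Each share above 0% rests on 1 or 2 genes. Of 28 HNF4A target genes, Apoc2, an activator of lipoprotein lipase, rose in WD+oil (3.27, SE 0.70, adjusted p = 0.0454) and Hsd17b13, a lipid droplet protein, rose in ND+CCl4 (1.37, SE 0.24, adjusted p = 0.0404), while none was called in WD+CCl4. Apoc2 was at 140 and 618 FPKM in WD+oil against 15.9, 45.2 and 35.7 FPKM in ND+oil, and Hsd17b13 at 454 and 295 FPKM in ND+CCl4 against 159, 140 and 124 FPKM in ND+oil. In the other comparisons Apoc2 was at 631 and 234 FPKM in ND+CCl4 (3.65, adjusted p = 0.0545) and at 596 FPKM in WD+CCl4 (4.29, adjusted p = 0.0820), larger differences that were not called. Leaving out any 1 of the 5 libraries compared ended the Apoc2 call (adjusted p up to 0.349), and leaving out ND+CCl4 library 1, any ND+oil library or either WD+oil library ended that of Hsd17b13 (up to 0.211). Under median-of-ratios scaling neither was called (adjusted p = 0.0785 and 0.0766). Hnf4a itself was not called in these comparisons.

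Among 14 FOXA target genes, 12 tested, Aldh1b1, a mitochondrial aldehyde dehydrogenase, rose in ND+CCl4 to 96.2 and 74.0 FPKM, against 9.46, 18.04 and 13.8 FPKM in ND+oil (2.57, SE 0.26, adjusted p = 0.00587). Without ND+CCl4 library 1 its adjusted p was 0.0575. Tdo2, the tryptophan-degrading enzyme, also rose in ND+CCl4, to 436 and 345 FPKM, against 204, 188 and 181 FPKM in ND+oil (1.02, SE 0.19, adjusted p = 0.0460). Median-of-ratios scaling ended this call (adjusted p = 0.141) and without any of ND+CCl4 library 1, the ND+oil libraries or the WD+oil libraries (adjusted p up to 0.247). Cyp2c29 fell to 26.3 FPKM in WD+CCl4, against 514, 523 and 483 FPKM in ND+oil (-4.22, SE 0.54, adjusted p = 0.0185). Without ND+oil library 1 or 2 or either WD+oil library its adjusted p was up to 0.0607. It belongs to a family of near-identical Cyp2c genes, between which reads can be divided. Other FOXA targets, among them Tat, Pck1 and G6pc, were not called, and the median of the 12 was -0.08 in WD+oil, 0.03 in ND+CCl4 and -0.36 in WD+CCl4. For all genes it was 0.22, 0.26 and 0.19, and under median-of-ratios scaling that of the 12 was -0.35, -0.30 and -0.59.

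None of the 16 C/EBP alpha target genes was called, and their median was -0.20 in WD+oil, 0.49 in ND+CCl4 and -0.45 in WD+CCl4. The medians of all genes were 0.22, 0.26 and 0.19, and under median-of-ratios scaling the 16 had medians of -0.47, 0.16 and -0.68. Of the 16, in the values as deposited, 4, 11 and 2 were above 0. Tat, tyrosine aminotransferase, was at 237 FPKM in WD+CCl4, 600 and 702 FPKM in WD+oil, 272 and 476 FPKM in ND+CCl4, and 844, 607 and 511 FPKM in ND+oil. Tat was lowest in WD+CCl4, where Cebpa was at 108 FPKM.

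The list of acute phase targets of C/EBP beta held 16 genes, Socs3 among them. Their median log2 fold change was 0.85 in WD+oil, -0.33 in ND+CCl4 and 1.64 in WD+CCl4, against 0.22, 0.26 and 0.19 for all genes. In these comparisons 14, 6 and 16 of the 16 were above 0, and the medians of the 16 were 0.58, -0.66 and 1.45 under median-of-ratios scaling. Serpina3n, a secreted protease inhibitor, was the 1 gene called: it rose to 665 FPKM in WD+CCl4, against 115, 168 and 111 FPKM in ND+oil (2.36, SE 0.34, adjusted p = 0.0287). Its adjusted p was up to 0.0729 without ND+oil library 1 or 3 or either WD+oil library. Serum amyloid Saa1 was at 12024 FPKM in WD+CCl4, 1384 and 3828 FPKM in WD+oil, 65.7 and 46.2 FPKM in ND+CCl4, and 1116, 1923 and 123 FPKM in ND+oil. The ND+oil and WD+oil libraries of Saa1 overlapped, both ND+CCl4 libraries stood below the rest, and Saa1 was not called. Saa1 and Saa2 are near-identical genes between which reads can be divided. In the WD+CCl4 library, the highest of all for Saa1, Cebpb was at 68.7 FPKM, inside the ND+oil range.

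Of 15 NR5A2 target genes, 14 tested, Fads2, a fatty acid desaturase, and Abcb4, the phospholipid exporter of bile, rose in WD+oil. Fads2 was at 329 and 363 FPKM in WD+oil against 113, 115 and 75.7 FPKM in ND+oil (1.79, SE 0.24, adjusted p = 0.0152), and its adjusted p was up to 0.182 without either WD+oil library. Abcb4 was at 51.4 and 55.6 FPKM in WD+oil against 32.6, 30.8 and 29.1 FPKM in ND+oil (0.78, SE 0.16, adjusted p = 0.0433), a call lost without any 1 of the 5 libraries compared (up to 0.336) and under median-of-ratios scaling (0.179). None of the 14 was called in ND+CCl4 or WD+CCl4, and the median was 0.73 in WD+oil, 0.01 in ND+CCl4 and 0.27 in WD+CCl4. For all genes it was 0.22, 0.26 and 0.19, and under median-of-ratios scaling that of the 14 was 0.46, -0.31 and 0.05. Nr0b2 (SHP), the repressor that NR5A2 induces and that acts back on it, was at 7.98 FPKM in WD+CCl4, 14.6 and 32.1 FPKM in WD+oil, 4.44 and 8.73 FPKM in ND+CCl4, and 38.7, 10.3 and 12.7 FPKM in ND+oil.

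Of 12 genes of the fetal liver, which adult hepatocytes keep silent, 6 were listed at 0 in every library and 3 could be tested, with 0 called. All 3 tested had a log2 fold change above 0 in each group against ND+oil, with a median of 1.01 in WD+oil, 1.38 in ND+CCl4 and 1.73 in WD+CCl4. However, the 3 genes were below 1 FPKM in every ND+oil library and passed the filter only through treated libraries. Their direction was thus largely set by the filter, and no conclusion is drawn from it. Scd2, a stearoyl-CoA desaturase, was at 4.49 FPKM in WD+CCl4, 2.86 and 1.88 FPKM in WD+oil, 2.69 and 1.2001 FPKM in ND+CCl4, and 0.424, 0.914 and 0.675 FPKM in ND+oil, above all ND+oil libraries in each (adjusted p of 0.0719 in WD+oil, 0.160 in ND+CCl4 and 0.0682 in WD+CCl4). H19, an imprinted RNA, was at 9.08 FPKM in WD+CCl4, 3.17 and 3.24 FPKM in WD+oil, and 16.2 and 0.506 FPKM in ND+CCl4, and was listed at 0 in all 3 ND+oil libraries.

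Markers of the cell types of the liver differed between the same libraries. The 11 hepatocyte markers found, led by Alb at 15558 to 38054 FPKM, summed to 39794 FPKM in WD+CCl4, 41664 and 34212 FPKM in WD+oil, 59383 and 52984 FPKM in ND+CCl4, and 47498, 42914 and 37686 FPKM in ND+oil, and 0 of 11 were called. Both ND+CCl4 libraries, in which Hnf4a was highest, had the highest sums, but without Alb the sums were 18942 FPKM in WD+CCl4, 17722 and 18655 FPKM in WD+oil, 21330 and 20884 FPKM in ND+CCl4, and 26190, 21844 and 19249 FPKM in ND+oil. In ND+CCl4 the median log2 fold change of the 11 was -0.08, with 5 of 11 above 0, and -0.41 under median-of-ratios scaling. Over all tested genes 4.41% were called in WD+oil, 1.42% in ND+CCl4 and 0.929% in WD+CCl4, in either direction. Macrophage and monocyte markers, 15 tested of 16 listed, were called higher for 9 in WD+oil, led by Marco (3.65, SE 0.44, adjusted p = 0.0139), for 0 in ND+CCl4 and for 1 in WD+CCl4. They summed to 556 FPKM in WD+CCl4, 641 and 1290 FPKM in WD+oil, 547 and 183 FPKM in ND+CCl4, and 83.8, 170 and 164 FPKM in ND+oil. The macrophage marker called in WD+CCl4 was Ly6c2 (2.42), whose call was lost without ND+oil library 1 or 2 or either WD+oil library. Under median-of-ratios scaling Ly6c2 did not pass the filter. Of 9 neutrophil markers listed, 6 were tested, and among them Camp, Ltf and Ngp passed the filter only through libraries of the western diet. The direction of these genes was thus largely set by the filter, and no conclusion is drawn from the counts that follow. The 6 tested gave 6 calls in WD+CCl4, 1 in WD+oil and 0 in ND+CCl4. Sums over the 9 were 497 FPKM in WD+CCl4, 21.2 and 44.2 FPKM in WD+oil, 6.61 and 4.22 FPKM in ND+CCl4, and 4.35, 9.02 and 1.77 FPKM in ND+oil.

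Stellate cell markers, 12 tested of 13 listed, were called for 3 in WD+oil, 1 in ND+CCl4 and 0 in WD+CCl4, against 4.41%, 1.42% and 0.929% of all tested genes. Their sums were between 72.3 and 195 FPKM in the treated groups and between 41.4 and 51.2 FPKM in ND+oil. Endothelial markers, of interest for Prox1, were called for 4 of 9 tested in WD+oil (Lyve1, Flt4, Stab2 and Pecam1) and 0 in the other groups. The 12 listed mix lymphatic and sinusoidal markers, so these calls do not single out lymphatic cells. Sums over the 12 were 42.2 FPKM in WD+CCl4, 66.1 and 75.1 FPKM in WD+oil, 87.1 and 50.7 FPKM in ND+CCl4, and 30.9, 32.8 and 40.3 FPKM in ND+oil. The lymphatic marker Mmrn1 was listed at 0 in every library. Of 12 bile duct markers, 4 were tested and 0 called, and Cldn4 and Cftr were listed at 0 in every library. Their sums were 180 FPKM in WD+CCl4, 64.0 and 101.1 FPKM in WD+oil, 466 and 32.5 FPKM in ND+CCl4, and 21.8, 42.9 and 22.7 FPKM in ND+oil, most of it Spp1, which other cells also express. Of 3 adipocyte markers tested, 2 were called in WD+oil, 0 in ND+CCl4 and 1 in WD+CCl4, and Adipoq, Plin1, Lep and Retn were listed at 0 in every library. Cfd, called in WD+oil, passed the filter only through the WD+oil libraries, so its direction there was largely set by the filter. Without 1 library the count of called macrophage markers in WD+oil ranged from 0 to 13, that of endothelial markers from 0 to 6 and that of neutrophil markers in WD+CCl4 from 2 to 6. That of stellate cell markers ranged from 0 to 7 in WD+oil, 0 to 10 in ND+CCl4 and 0 to 4 in WD+CCl4, and that of adipocyte markers from 0 to 2 in WD+oil and 0 to 1 in the other groups. The part of these cells in the members' values was not tested.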

How the data were processed

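Liver RNA of 8 libraries in 4 groups was analysed. The authors deposited FPKM per gene for each library, made from TruSeq Stranded mRNA libraries per the labels' protocols. The submitters' processing notes name the build GRCm38 and the tools HISAT2 2.2.1, StringTie 2.1.0, cutadapt 3.7 and FastQC 0.11.9. The step of each tool, the annotation and the strand setting are not given in the sources used here. With FPKM alone the depth is unknown, and no count test or counting interval was computed.

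Genes with at least 1 FPKM in at least 2 libraries were tested, 11514 of 55487, all 9 transcription factors among them. On log2(FPKM + 1), limma 3.58.1 in R 4.3.3 fitted 1 mean per group over all libraries, with 4 residual and 7.93 total degrees of freedom (eBayes with trend, two-sided), and p-values were adjusted by Benjamini-Hochberg over all tested genes in each of 7 comparisons. The spread of the lone WD+CCl4 library was taken to equal that of the other groups. The comparisons with ND+oil share its 3 libraries. The script was tested on simulated data.

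The members and the 16 gene lists (206 of 207 genes matched, 170 tested) were chosen with earlier results of these data known. Named were all members, up to 3 genes with the smallest p per list and comparison with ND+oil, the 3 genes closest in profile to members whose group means spanned at least 1, and genes overlapping a member. Alternatives tried were no filter, a mean of at least 5 FPKM, a pseudocount of 0.1, rescaling to a common sum, median-of-ratios scaling, removal of 49 Mup genes, the replicate number as a block, robust eBayes and each library left out in turn. Those for the lists and for 2 interactions were added after seeing the data. No pair of libraries shared identical values over the expressed genes. Coordinates came from GENCODE M21 and promoters from RefSeq's GRCm38.p6 table. Python 3.11.15, pandas 2.3.3 and matplotlib 3.10.9 were used for tables and plots.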

Additional observations from a re-analysis of the deposited data

Results flagged for a closer look

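The interaction of diet and CCl4 was called for 2 listed genes that are not transcription factors of hepatocytes, which means that CCl4 and oil differed to another extent on the western diet than on chow. Camp, a neutrophil granule peptide, was at 23.8 FPKM in WD+CCl4 and at 0.370 and 1.23 FPKM in WD+oil, and was listed at 0 in all ND+CCl4 and ND+oil libraries. Its interaction was 3.82 on the log2(FPKM + 1) scale (SE 0.39, limma, adjusted p = 0.0286). Cfd, adipsin, was listed at 0 in WD+CCl4, was at 23.3 and 18.8 FPKM in WD+oil, was listed at 0 in both ND+CCl4 libraries, and was at 0.811 FPKM in 1 of the ND+oil libraries and at 0 in the others. Its interaction was -4.17 (SE 0.47, adjusted p = 0.0434). Both rest on the lone WD+CCl4 library. Camp passed the filter only through WD+CCl4 and 1 WD+oil library, and Cfd only through the WD+oil libraries. The pattern of both genes was thus largely set by the filter, and no conclusion is drawn from these interactions. The call was lost under median-of-ratios scaling for Camp (adjusted p = 0.0550) and Cfd (0.0912), with a pseudocount of 0.1 (0.418 and 0.367) and with the replicate number as a block (0.130 and 0.156). For Cfd it was also lost with no filter (0.0640), with a mean of at least 5 FPKM (0.107) and without the Mup genes (0.0784). Over 13 alternatives each, those that leave out 1 library included, Camp was called in 5 and Cfd in 4. None of the 9 transcription factors had such an interaction.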

How the results depend on the processing

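In no comparison did an alternative give a call among the 9 transcription factors, and 898 of their 958 alternative log2 fold changes kept their sign. Those that turned with rescaling to a common sum were, against ND+oil, Nr5a2 in WD+oil (0.00070), ND+CCl4 (0.16) and WD+CCl4 (0.0460) and Cebpb in WD+CCl4 (0.0843), and in the interaction Foxa3 (-0.0695) and Nr5a2 (-0.12). With median-of-ratios scaling Hnf4a (-0.19) and Foxa1 (-0.0594) turned in WD+CCl4 against ND+oil, Foxa3 (0.0030) and Nr5a2 (0.0363) in WD+CCl4 against ND+CCl4, and Hnf4a (0.20), Cebpb (0.35) and Foxa2 (0.23) in the interaction. Without the Mup genes Hnf4a (-0.12) and Foxa1 (-0.0196) turned in WD+CCl4 against ND+oil, and Cebpb (0.12) and Foxa2 (0.0310) in the interaction.

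Whether equal replicate numbers pair libraries is unknown. Deviations of same-numbered libraries from their group means correlated at -0.28 to -0.01. In a group of 2 libraries these deviations mirror each other, so the few separate values cannot decide the question. With the number as a replicate block, Foxa1 (0.0917) and Foxa2 (0.18) turned in WD+oil against ND+oil, Hnf4a (-0.00635) and Onecut1 (0.96) in WD+CCl4 against ND+oil, Nr5a2 (-0.0758) in WD+CCl4 against WD+oil, and Cebpb (0.11) and Nr5a2 (-0.0387) in the interaction. Genes called with the block numbered 32, 49, 6, 0, 11, 55 and 2 in the order of comparisons used next.

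Genes called over the whole table were 508 in WD+oil and 164 in ND+CCl4 against ND+oil, 107 in WD+CCl4 against ND+oil, 5 in WD+CCl4 against WD+oil, 30 in WD+CCl4 against ND+CCl4, 71 in WD+oil against ND+CCl4 and 7 in the interaction. In that order they were 121, 18, 171, 69, 109, 6 and 17 with no filter. A mean of at least 5 FPKM gave 190 for WD+oil and 42 for WD+CCl4 against ND+oil, 0 for WD+CCl4 against WD+oil and 3 for the interaction. A pseudocount of 0.1 gave 43, 0 and 15 for WD+CCl4 against ND+oil, WD+oil and ND+CCl4, and 3 for the interaction. Rescaling gave 812 for WD+oil and 407 for ND+CCl4 against ND+oil, 11 for WD+CCl4 against WD+oil and 13 for the interaction. Median-of-ratios scaling gave 283 and 91 for WD+oil and ND+CCl4 against ND+oil and 0 for the interaction, and removal of the Mup genes 315, 100 and 2. The share of calls that were higher in ND+CCl4 was 72.0%, against 40.7% with median-of-ratios scaling, and in WD+oil 86.4% against 74.9%. Leaving out 1 library gave 4 to 1159, 22 to 1165, 36 to 486, 1 to 16, 6 to 32, 1 to 122 and 0 to 168 calls.

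Without 1 library, signs turned in WD+oil against ND+oil for Cebpa (-0.75 to 0.39), Foxa1 (-0.45 to 0.13), Foxa2 (-0.58 to 0.18), Nr5a2 (-0.29 to 0.11) and Prox1 (-0.34 to 0.17). In ND+CCl4 against ND+oil they turned for Nr5a2 (-0.10 to 0.0946) and Onecut1 (-0.57 to 1.32). In WD+CCl4 against ND+oil they turned for Hnf4a (-0.0055 to 0.0626), Cebpb (-0.25 to 0.22), Foxa1 (-0.21 to 0.34) and Onecut1 (-0.79 to 0.44), and against WD+oil for Foxa1 (-0.0294 to 0.52) and Nr5a2 (-0.16 to 0.23). In WD+CCl4 against ND+CCl4 they turned for Foxa2 (-0.66 to 0.11), Foxa3 (-0.23 to 0.0425), Nr5a2 (-0.15 to 0.0502) and Onecut1 (-1.47 to 0.43), and in WD+oil against ND+CCl4 for Nr5a2 (-0.28 to 0.11). In the interaction they turned for Cebpa (-0.22 to 0.91), Cebpb (-0.27 to 0.21), Foxa2 (-0.48 to 0.31), Foxa3 (-0.0329 to 0.24), Nr5a2 (-0.16 to 0.24) and Onecut1 (-0.0201 to 1.87). No value exists without the lone WD+CCl4 library in its comparisons. With a mean of at least 5 FPKM Foxa1 and Onecut1 could not be fitted. The cause of these changes was not tested.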

Other observations

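Dbp, a clock-controlled factor listed among the C/EBP dimer partners, was at 43.6 FPKM in WD+CCl4, 19.3 and 65.7 FPKM in WD+oil, 60.1 and 91.0 FPKM in ND+CCl4, and 51.1, 47.8 and 0.481 FPKM in ND+oil. ND+oil library 3 stood apart from the other 7 in this gene. In the same library Cebpb was the lowest of the ND+oil libraries and Foxa1, Foxa2 and Onecut1 were the highest. The part of this library in the members' values was not tested, beyond the values without it.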
